A study of Mus musculus with 11 samples.

Results

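The regions described here are H3K4me3 peaks that lie inside genes, well away from where the genes begin and end. They were chosen as WT H3K4me3 peaks on chromosomes 1 to 19, X and Y that overlap the span of a protein-coding gene in mm10 and lie more than 1000 bases from every end of any protein-coding gene span. The rule used position alone. It kept 1592 of the 9836 WT peaks (16.2%), while 7568 peaks (76.9%) lay within 1000 bases of a gene end and 676 (6.87%) lay outside protein-coding genes and their ends. Of the 21887 protein-coding genes, 1386 (6.33%) held at least 1 such member.

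Cut-and-run profiling (CUT&RUN), in which an antibody on chromatin directs a nuclease to release the bound DNA, was done on mouse embryoid bodies at day 2 of culture. All groups had the cell line background Rx:GFP KI, a GFP knock-in at the eye field gene Rx. They were aggregated by SFEBq, a serum-free floating culture, in GMEM containing 5% KSR, with doxycycline removed at day 0, 2% matrigel added at day 1 and 2 µg of antibody per experiment. The 3 genotypes were wild type (WT), Wdr5 KO (KO) and Wdr5 and p53 double KO (DKO), each with 1 H3K4me3 library. For WDR5 and P53, WT and DKO had 2 lists per antibody, and those of DKO show what each antibody called where its target is labelled as removed. The labels do not say how Wdr5 was removed, what doxycycline controlled, how many clones were used or whether any cells kept the gene.

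H3K4me3, trimethylated lysine 4 of histone H3, is laid down by the MLL and SET1 methyltransferase complexes, in which WDR5, ASH2L, RBBP5 and DPY30 are shared core subunits. It is concentrated at active and CpG-rich gene starts, with weaker signal at some enhancers. Many genes have further starts inside their span, from which shorter or differently begun transcripts arise, and non-coding transcripts can also start within a coding gene. Stem cells carry the mark at many starts of developmental genes that are not yet strongly transcribed.

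The H3K4me3 lists rested on 34187012 fragments in WT, 22266680 in KO and 43186562 in DKO, and held 9836, 918 and 6418 peaks. With 1 library per genotype, no difference between genotypes has a replicate check, no test was made between them, and depth or the quality of a library cannot be told apart from genotype. Fold enrichment is the authors' ratio of fragments at a peak's summit to those expected from its surroundings in that library. It is not scaled between libraries, so values of the 3 lists stand side by side as descriptions. Intervals in brackets are 95% Wilson intervals, which cover counting error only. In the WT list, 8 of 10 pluripotency markers held a peak at an end or a member, among them Pou5f1, Sox2 and Esrrb, against 4 of 10 anterior neural markers, 2 of 8 of mesoderm and endoderm, 1 of 7 of fibroblast feeders and 4 of 6 of trophoblast and extraembryonic cells. Of the anterior neural markers, Otx2, Six6, Zic2 and Sox11 had an end peak, and Six3, Rax, Pax6, Lhx2, Hesx1 and Sox1 had neither. Nanog and Dppa5a were the pluripotency markers with neither.

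The sequences of 8 starts, inside or at the ends of genes that hold members, are shown here. Of the 8 sequences here, those of Dpy30, Cdkn1a and Dnmt1 are shown because they pair an outer start at the end of a gene span with a marked start inside the gene. Kdm2b is shown as an inner start with the most CG dinucleotides of the 8, and Kcnq1ot1 as the start of a non-coding RNA inside a coding gene. All were chosen after the peak values were seen. Each is the 300 bases from 250 before to 50 from the start on, taken from RefSeq (GRCm38.p6, the assembly of mm10) and written 5′ to 3′ in the direction of the gene. Capitals mark CG dinucleotides, the site of DNA methylation in mammals, which are sparse in most of the genome and dense at CpG islands.
Dpy30 outer start: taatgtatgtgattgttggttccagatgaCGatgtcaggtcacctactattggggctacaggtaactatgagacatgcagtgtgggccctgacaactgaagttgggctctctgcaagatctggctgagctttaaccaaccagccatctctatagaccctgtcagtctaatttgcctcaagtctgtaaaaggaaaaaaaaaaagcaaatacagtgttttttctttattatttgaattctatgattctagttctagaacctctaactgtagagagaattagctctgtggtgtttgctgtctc
Dpy30 inner start: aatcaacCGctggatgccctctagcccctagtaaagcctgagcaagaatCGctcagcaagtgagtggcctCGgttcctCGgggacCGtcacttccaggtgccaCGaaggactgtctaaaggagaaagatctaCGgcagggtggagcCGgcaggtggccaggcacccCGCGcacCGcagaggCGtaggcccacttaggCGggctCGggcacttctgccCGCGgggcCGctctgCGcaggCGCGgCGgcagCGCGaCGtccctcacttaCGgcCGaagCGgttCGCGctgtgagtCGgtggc
Cdkn1a outer start: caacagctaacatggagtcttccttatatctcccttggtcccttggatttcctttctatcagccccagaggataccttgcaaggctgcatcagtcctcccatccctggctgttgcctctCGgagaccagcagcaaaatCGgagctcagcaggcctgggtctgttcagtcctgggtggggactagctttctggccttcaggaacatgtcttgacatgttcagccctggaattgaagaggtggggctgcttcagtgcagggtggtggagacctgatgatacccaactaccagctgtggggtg
Cdkn1a inner start: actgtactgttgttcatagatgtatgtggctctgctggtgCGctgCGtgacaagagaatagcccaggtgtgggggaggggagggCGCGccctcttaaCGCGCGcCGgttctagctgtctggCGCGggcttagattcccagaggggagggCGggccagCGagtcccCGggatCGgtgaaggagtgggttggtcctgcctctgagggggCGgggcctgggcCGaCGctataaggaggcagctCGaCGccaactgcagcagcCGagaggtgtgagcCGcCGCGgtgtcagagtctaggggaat
Dnmt1 outer start: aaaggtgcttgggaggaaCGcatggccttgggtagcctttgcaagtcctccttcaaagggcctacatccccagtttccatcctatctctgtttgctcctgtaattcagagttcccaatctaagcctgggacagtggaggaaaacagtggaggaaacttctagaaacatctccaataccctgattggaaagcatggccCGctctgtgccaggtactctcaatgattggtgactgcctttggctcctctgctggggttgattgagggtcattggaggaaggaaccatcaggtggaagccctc
Dnmt1 inner start: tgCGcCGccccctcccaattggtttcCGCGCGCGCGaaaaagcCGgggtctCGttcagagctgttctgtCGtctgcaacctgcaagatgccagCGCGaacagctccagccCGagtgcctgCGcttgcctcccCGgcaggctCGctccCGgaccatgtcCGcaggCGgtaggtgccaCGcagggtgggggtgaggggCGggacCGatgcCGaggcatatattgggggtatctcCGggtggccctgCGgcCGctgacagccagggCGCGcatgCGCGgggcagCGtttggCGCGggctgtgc
Kdm2b inner start: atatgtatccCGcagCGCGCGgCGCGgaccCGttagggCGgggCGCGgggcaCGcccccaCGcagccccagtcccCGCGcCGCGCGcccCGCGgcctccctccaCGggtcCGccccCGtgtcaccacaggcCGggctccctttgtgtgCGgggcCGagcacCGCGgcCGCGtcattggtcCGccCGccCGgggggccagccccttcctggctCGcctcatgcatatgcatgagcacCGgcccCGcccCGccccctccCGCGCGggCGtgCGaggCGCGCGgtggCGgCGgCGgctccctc
Kcnq1ot1 start: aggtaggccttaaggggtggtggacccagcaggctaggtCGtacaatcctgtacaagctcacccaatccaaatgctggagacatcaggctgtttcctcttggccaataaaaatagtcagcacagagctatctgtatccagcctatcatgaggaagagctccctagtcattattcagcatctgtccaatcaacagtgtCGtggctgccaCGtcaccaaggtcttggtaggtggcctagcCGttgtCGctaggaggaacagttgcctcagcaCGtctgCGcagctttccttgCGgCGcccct

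Dpy30 encodes a core subunit of the MLL and SET1 complexes themselves. Its outer start (chr17:74323895-74324194, minus strand) held 1 CG and no peak in any of the 3 lists. The inner start, 7511 bases further in (chr17:74316384-74316683), held 30 CG and lay under a member 1429 bases wide. That member had a fold enrichment of 7.52 in WT and 5.54 in DKO and no peak in KO.

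Cdkn1a encodes the cell cycle inhibitor p21, a principal p53 target. The outer start (chr17:29090729-29091028, plus strand) held 2 CG and was unmarked in all 3 lists, while the start 2790 bases downstream (chr17:29093519-29093818) held 23 CG and had a member 35 bases away. The member had a fold enrichment of 3.75 in WT and 6.11 in KO, with pileups (fragments over the summit, not scaled to depth) of 29 and 32, and no peak in DKO. Cdkn1a was thus among the 17 members called in KO but not in DKO.

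Dnmt1 encodes the maintenance DNA methyltransferase. Its outer start (chr9:20959839-20960138, minus strand) held 2 CG and no peak, whereas the inner start printed here (chr9:20952574-20952873) held 33 CG and lay under a member with a fold enrichment of 4.93 in WT, 4.72 in DKO and none in KO. Kdm2b, a demethylase that binds unmethylated CpG islands, showed another arrangement. The outermost start held 28 CG and was marked in WT and DKO there, and the inner start 88732 bases downstream (chr5:122900318-122900617, minus strand) held 47 CG and was marked in WT alone, at 3.78.

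Kcnq1ot1 is an imprinted non-coding RNA that starts inside Kcnq1 and runs against it. The member beside its start (chr7:143296498-143296797, minus strand) was 2008 bases wide, the third widest of all members, after those at Sp110 and Sp140 (2248 bases) and Mkrn1 (2085 bases). It lay 130564 bases from the nearest coding gene end and was called in all 3 genotypes, at 5.94 in WT, 5.15 in KO and 5.30 in DKO. The window at that start held 9 CG.

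These genes belong to a broader pattern, in which members sat at starts inside genes. The RefSeq table of starts covered 20 of the 21 chromosomes (none on chromosome 18), and 1533 members lay on those. Of these, 913 (59.6%, 57.1 to 62.0) lay within 1000 bases of a listed start, against 75.4% of all WT peaks with such a table and 83.8% of peaks at gene ends. At 869 of the 913 the start was that of a protein-coding gene, and at the other 44 it was a start of a long non-coding RNA (lncRNA) alone. Each of the 869 coding starts belonged to the gene that held the member, which the rule fixes in advance. The remaining 620 members had no listed start within 1000 bases. The table is not complete: it held a start for the host gene of 1275 of the 1533 members, and 894 of those 1275 (70.1%) were near one. In 90 of the 869 the nearest coding start itself lay within 1000 bases of a gene end, as at Jarid2, where the nearest start lay 497 bases into the gene and the member 613 bases from that start.

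Member summits lay mostly downstream of these starts. Of the 862 members whose summit was within 1000 bases of a start, 679 (78.8%) had it on the downstream side, and the median offset was 294 bases, with quartiles of 75 and 509. Peaks at gene ends were placed alike, with 80.7% downstream and a median of 274 bases. The interval of the member covered a start in 14.4% of cases, against 22.0% at gene ends. Member summits lay on both sides of the same start at 45 of the 803 coding starts with a member. Ptch1, the Hedgehog receptor gene, had one member with its summit 148 bases upstream of its inner start and another with its summit 1302 bases downstream.

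**Figure D1:**
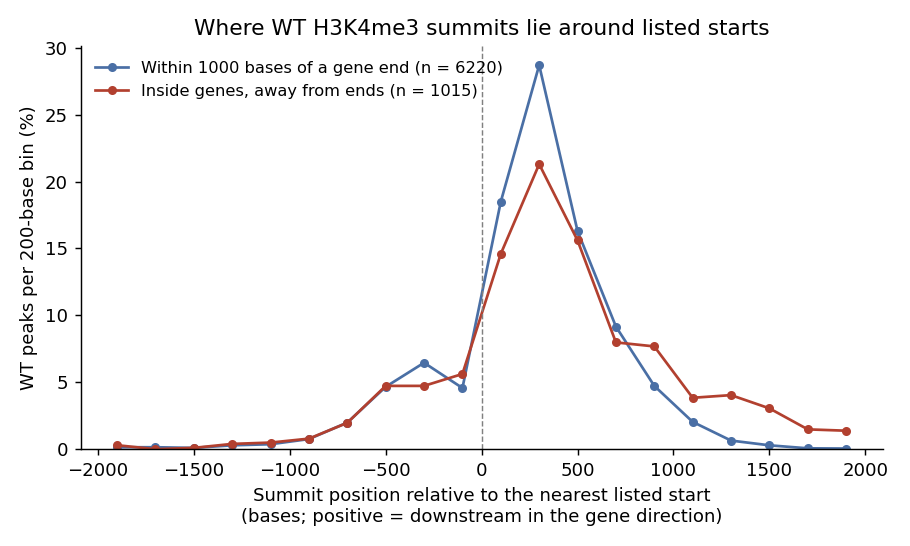
Position of WT H3K4me3 summits relative to the nearest listed start (x axis, bases, positive downstream), as the percentage of each class per 200-base bin (y axis), for summits within 2000 bases of a start. Both classes peak between 200 and 400 bases downstream, and members (red) have the longer tail beyond 1000 bases.

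Of 1300 genes with listed starts both at an end and inside, 150 had a WT peak at both places, 339 at the end only, 132 inside only and 679 at neither. CG counts were compared within genes chosen for a marked inner start, a choice that favours CG-rich inner starts. There were 211 genes with an outer start at a gene end and an inner start more than 1000 bases downstream of it that had a member. The outer start had a WT peak in 80 of them (37.9%) and none in 131. Where it had none, the inner start held more CG in 103 of 131 genes (78.6%, 70.8 to 84.8), with medians of 19 CG at the inner and 6 at the outer start. Where the outer start was also marked, the inner start held more in 34 of 80 (42.5%, 32.3 to 53.4), with medians of 19.5 and 22. Examples of the first kind were Tmem39a (2 CG outside, 23 inside, WT fold 9.23), Cnot8, a subunit of the CCR4-NOT deadenylase (3 and 30, WT fold 8.22), and Kdm4c, a histone H3 lysine 9 demethylase (0 and 28, WT fold 5.87). Mdm4, a p53 inhibitor, had little CG at either (4 and 9) and a member at 6.06. Which start the cells transcribed was not measured.

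**Figure D2:**
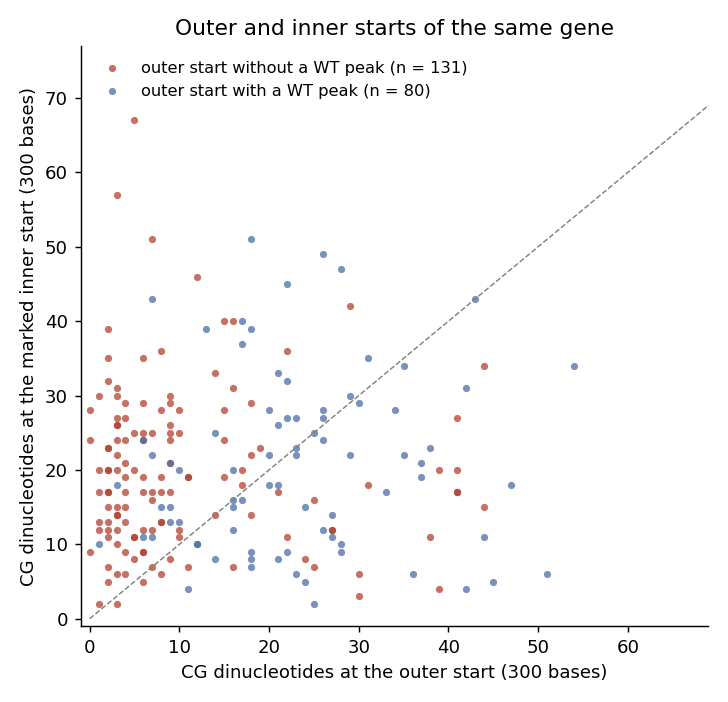
CG dinucleotides in the 300 bases around the outer start (x axis) and the marked inner start (y axis) of the same gene, 1 point per gene, coloured by whether the outer start had a WT peak; the dashed line marks equal counts. Of the 131 red points, 103 lie above the line, and of the 80 blue points, 34 do.

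Across the table, CpG content went with marking at inner starts as it did at the ends. Of 3881 coding starts that themselves lay inside genes beyond 1000 bases from every end, 962 (24.8%) had a WT peak within 1000 bases, against 39.4% of 17382 coding starts at ends. The share at inner starts was 0.784% with 0 to 2 CG in the 300 bases, 13.4% with 6 to 10, 36.1% with 11 to 15 and 57.0% with 21 to 30. At gene ends it was 0.531%, 19.8%, 50% and 66.9% in the same ranges. In 5 of these 7 ranges, from 6 CG up, the intervals of inner and end starts did not overlap, with the inner starts lower.

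**Figure D3:**
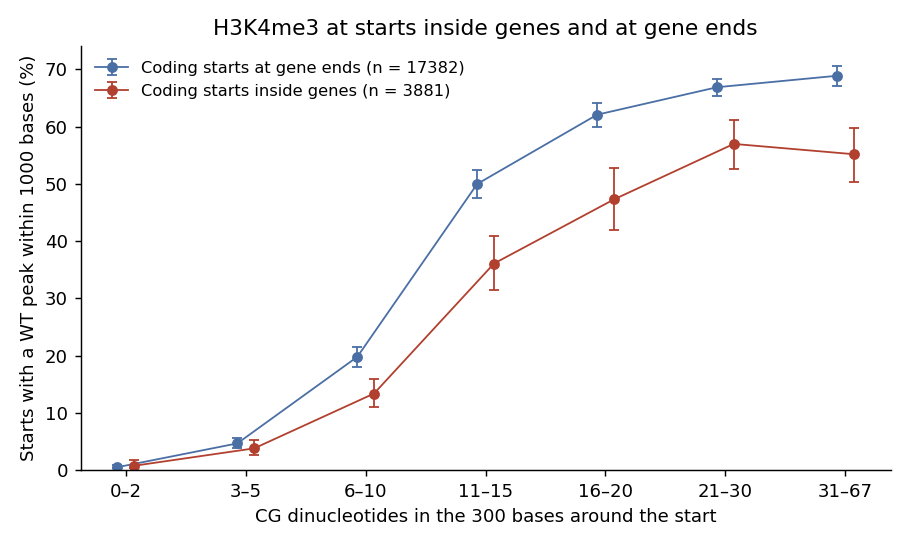
Percentage of coding starts with a WT H3K4me3 peak within 1000 bases (y axis) by the number of CG dinucleotides around the start (x axis), for starts inside genes and at gene ends, with 95% Wilson intervals. Inner starts go from 0.784% to 57.0% and end starts from 0.531% to 68.9%.

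The 845 inner coding starts with a member had a median of 23 CG. The median was 6 at the 2919 inner starts without a peak and 7 over all 32851 coding and lncRNA starts of the table. The GC box (GGGCGG, either strand), the Sp1 family site, was present in 68.4% of them, in 29.4% of the unmarked inner starts and in 35.7% of all starts. The ETS-type motif CCGGAA (either strand) was present in 26.4%, 9.11% and 14.9%, and TATAAA (either strand) in 4.85%, 12.8% and 13.6%. Marked coding starts at gene ends, 6852 in all, also had a median of 23 CG. The same motifs, in this order, were present in 71.5%, 34.9% and 5.31% of those, so the enrichment is not particular to members. GGGCGG and CCGGAA each contain a CG, so their shares move with CpG content. A match is a stretch of letters and not a bound site. Starts with a member that also had a DKO peak held a median of 24 CG, those without one 21, and the 46 with a KO peak 28.

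Members lay towards the front of their genes. Among the 1257 members in a single gene of known strand, the median summit lay at 18.4% of the span from the 5′ end, and 982 (78.1%) lay in the 5′ 50% of it. The 374 members of this set without a listed start were spread more evenly, with a median of 34.7%. The nearest coding gene end was a median of 3646 bases away, with 1050 members beyond 2000 bases and 685 beyond 5000, and 136 members (8.54%) lay more than 50000 bases from any end, the farthest 383504 bases away at an inner start of Robo1, an axon guidance receptor. Host genes were long: members lay in spans with a median of 50784 bases, against 17169 bases over all protein-coding genes. The rule favours this, since a member must lie more than 1000 bases from both ends of its gene. Members were also modest peaks, with a median WT fold enrichment of 4.07 and width of 432 bases, against 4.52 and 553 at gene ends. Peaks outside protein-coding genes were close to members in fold enrichment, at 4.08, and narrower, at 378 bases. Just above the 1000-base limit were members at Zfp704 and Gm39469 (1001 bases) and Kcmf1 (1002), and just below it peaks at Adam22 (999), Pou3f1 (998) and Asf1a (997).

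In KO, 100 of the 1592 members (6.28%, 5.19 to 7.58) were overlapped by a peak, against 8.08% of all WT peaks and 7.61% of peaks at gene ends. In DKO, 608 (38.2%, 35.8 to 40.6) were overlapped, against 49.2% of all WT peaks and 52.2% at gene ends. Both lists covered 83 members (5.21%, against 7.11% of all WT peaks), and 17 were covered in KO only (1.07%, against 0.976%). There were 525 covered in DKO only (33.0%, against 42.1%) and 967 in neither (60.7%, against 49.8%). The KO share of members lay below that of all WT peaks, as 8.08% is above its interval. Against end peaks this order did not hold in most bins of WT fold enrichment, as given below. In DKO the share of members also lay below that of WT peaks as a whole. Of the 676 WT peaks outside protein-coding genes, 41.3% (37.6 to 45.0) were overlapped in DKO and 17.6% (14.9 to 20.7) in KO. The DKO intervals of members and outside peaks overlapped, so a DKO share below that of end peaks was not particular to members. The shares depend on the length of the lists: with each list shortened to its 918 strongest peaks, the KO list covered 21.6% and the DKO list 33.0% of the 97 members left, against 22.7% and 36.7% of the end peaks left.

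Members were weaker peaks than those at gene ends, so the shares were also taken within 10 bins of WT fold enrichment. The DKO share of members was below that of end peaks in 9 of the 10 bins. In the bin from 4.71 to 5.06 it was 43.5% (34.8 to 52.6) of 115 members against 59.9% (56.5 to 63.2) of 823 end peaks, and in the highest bin 77.8% (68.6 to 84.8) against 86.1% (83.5 to 88.3). In the lowest bin the values were 24.3% and 24.1%. For KO the members were below in 3 of 10 bins. In the lowest bin, 5.22% of members and 1.78% of end peaks were overlapped in KO. With peaks divided into 4 equal groups by WT width the order was the same for DKO, from 18.8% of members and 22.8% of end peaks in the narrowest to 69.2% and 79.3% in the widest.

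**Figure D4:**
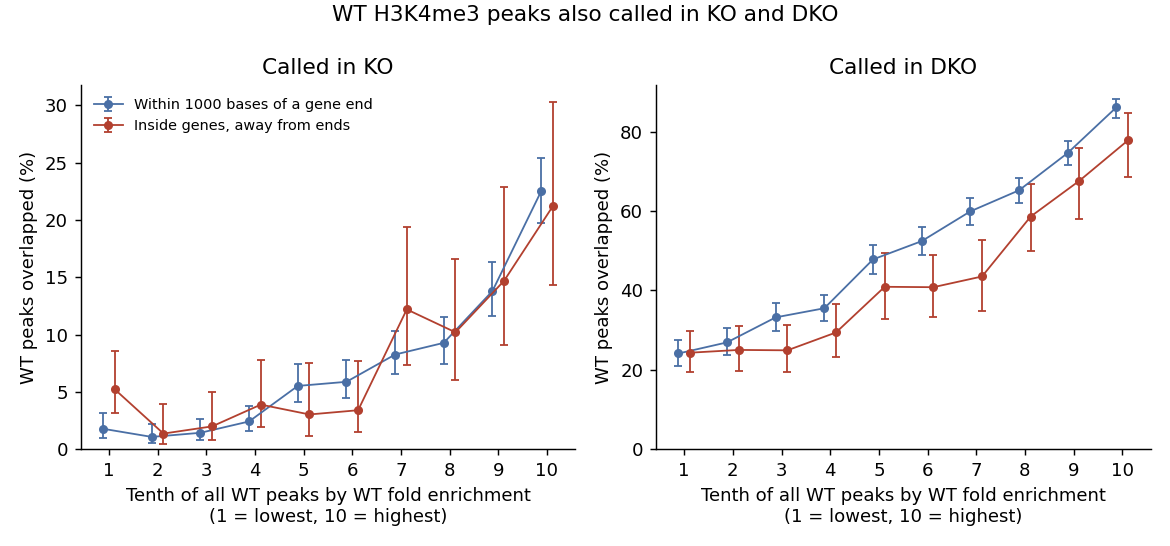
Percentage of WT H3K4me3 peaks overlapped by a KO peak (left) and a DKO peak (right) in 10 bins of WT fold enrichment (x axis), for members (red) and peaks at gene ends (blue), with 95% Wilson intervals. In DKO the members lie below the end peaks in 9 of 10 bins; in KO they do so in 3.

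Coverage was also taken separately for members with and without a listed start, and the intervals of these 2 groups overlapped in both genotypes. At coding starts, 41 of 869 (4.72%, 3.50 to 6.34) had a KO peak and 349 (40.2%, 37.0 to 43.5) a DKO peak. Without a listed start, 51 of 620 (8.23%, 6.31 to 10.7) had a KO peak and 220 (35.5%, 31.8 to 39.3) a DKO peak. Some members lay on places that the WDR5 or P53 antibody called in DKO, where the targets are labelled as removed. Such places held 49 members (3.08%, against 1.97% of all WT peaks), of which 41 had no listed start. Of the 49, 22 (44.9%) had a KO peak, close to the 45.4% of all 194 WT peaks on such places. Without them, the KO share was 4.76% at coding starts and 5.01% without a listed start, and the DKO shares were 40.1% and 32%. Over all members the KO share without these places was 5.06%, against 7.33% of all WT peaks without them.

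Distance from the ends went with the DKO share. It was 41.3% for members 1000 to 2000 bases from the nearest end, 38.7% at 5000 to 10000 bases and 29.4% beyond 50000 bases, and the share at a listed start was 61.2%, 62.6% and 40.6% in the same bands. The KO share was 5.90%, 5.53% and 8.82%. An end peak within 2000 bases, which 204 members (12.8%) had, went with a DKO share of 40.7% (34.2 to 47.5), against 37.8% (35.3 to 40.4) of the other members.

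Of the 1386 host genes, 439 (31.7%) also had a WT peak at an end and 947 did not. Among the 439, DKO had peaks at both places in 89 genes, at the member only in 80, at the end only in 132 and at neither in 138. In KO the corresponding numbers were 3, 21, 37 and 378. Among the 947 genes marked only at a member in WT, the member was covered in 403 (42.6%) in DKO and 65 (6.86%) in KO. An end peak was called in 31 of these 947 genes in DKO and in 2 in KO, whether or not the member was called too.

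Members called in KO had started from stronger and wider WT peaks, with a median WT fold enrichment of 4.99 and width of 691 bases, against a fold of 4.03 for members not called in KO. Their KO fold enrichment had a median of 4.57 and was above the WT value at 41 of the 100. The 20 with the highest KO values ran from 6.10 to 13.9, 15 of them above WT, as the choice by KO value favours. Only 4 of these 20 lay at a coding start (Cdkn1a, Mkrn1, Zfp638 and Colgalt1), 7 lay on places called by the WDR5 or P53 antibody in DKO, and 5 had no DKO peak. Aida, with 11.5 in WT, 13.9 in KO and 16.3 in DKO, Apool, with 15.4, 9.42 and 16.5, and the shared member of Cmss1 and Filip1l, with 13.3, 10.4 and 12.9, were of the antibody-called kind. Thsd7b, Ulk4, Nek1 and Adamts6 had no listed start nearby, were at 4.76 to 5.36 in WT and 7.25 to 11.4 in KO, and had no DKO peak. Mkrn1, a RING finger ubiquitin ligase gene, had a member 2085 bases wide over its inner start with 5.43 in WT, 6.63 in KO and 4.90 in DKO. At Csnk1a1, the gene of casein kinase 1 alpha in the β-catenin destruction complex, the values were 5.70, 7.45 and 5.02.

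**Figure D5:**
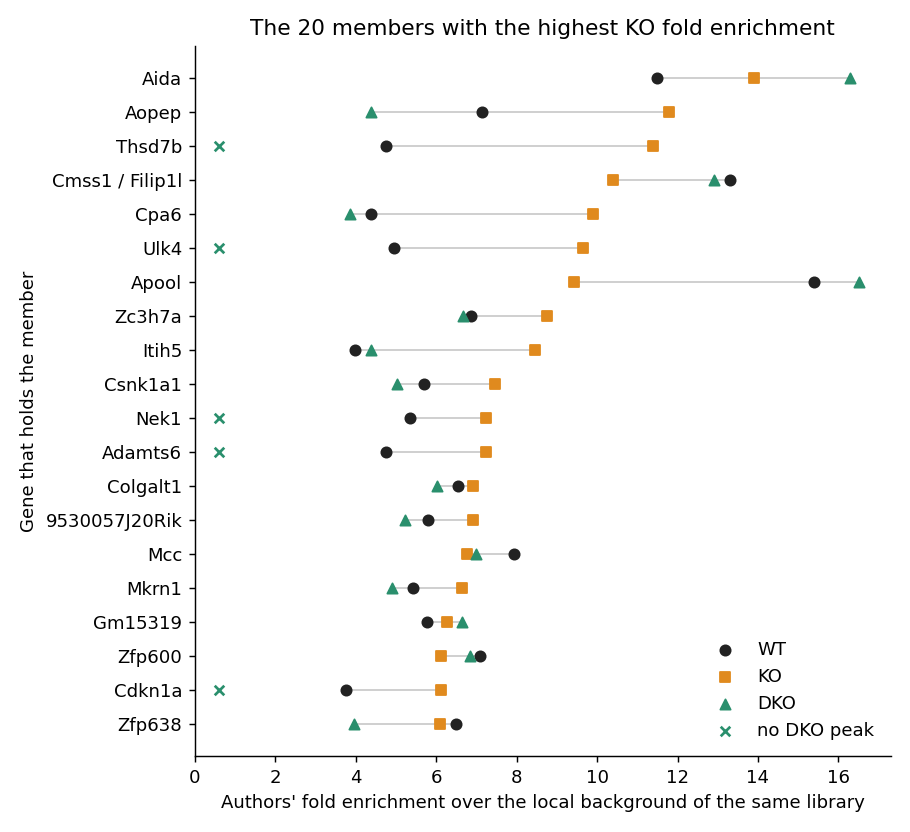
Fold enrichment (x axis, the authors' value over the local background of each library) in WT, KO and DKO for the 20 members with the highest KO value, labelled by host gene; crosses at the left mark members with no DKO peak. KO values run from 6.10 to 13.9, and 5 members, Thsd7b, Ulk4, Nek1, Adamts6 and Cdkn1a, have no DKO peak.

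The 20 members with the highest WT fold enrichment ran from 7.55 to 33.6. Of these, 12 lay at coding starts and 5 on places called by the WDR5 or P53 antibody in DKO. There were 18 with a DKO peak and 7 with a KO peak, beside 38.2% and 6.28% of all members. The highest, inside Chl1, was 231 bases wide with pileups of 1140 in WT and 1175 in DKO, and lay on antibody-called places. Among those at coding starts, Tmem39a was at 9.23 in WT and 5.26 in DKO, and Ccdc174 at 8.73 and 4.19, both with no KO peak. Atad2b, a bromodomain ATPase gene, had 8.64 in WT, 5.65 in KO and 4.67 in DKO, and Wdr20, whose product activates a deubiquitinase, had 8.20, 5.33 and 6.15. Rps6ka2 (7.55) and Acin1 (8.07) were the 2 of the 20 with no peak in either knockout. Of the 18 with a DKO peak, 15 had a lower fold enrichment there than in WT, as the choice by WT value favours, against 436 of all 608 members with a DKO peak.

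Genes of chromatin regulators, a list of 75 chosen with earlier results of these data known, held members in 24 cases (32%), against 6.33% of all protein-coding genes. The listed genes are long, with a median span of 65869 bases, and 56 of them had a peak at an end. Of their 34 members, 6 had a KO peak, 18 a DKO peak and 16 neither, beside 6.28%, 38.2% and 60.7% of all members. Besides Dpy30, the methyltransferase machinery was represented by Kmt2d, an enhancer-linked H3K4 methyltransferase, with 5.29 in WT, 3.71 in KO and 4.07 in DKO over its inner start, and by Ash2l, another core subunit. The stronger of the 2 members of Ash2l was at 4.93 in WT, 4.29 in KO and 3.51 in DKO, and the weaker, 3.36 in WT, was called in neither knockout. Setd1b had a narrow member at 3.24 in WT alone.

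Demethylase and DNA methyltransferase genes of the list differed from member to member. Kdm2a had 7.33 in WT, 3.84 in DKO and no KO peak. Kdm6b, an H3K27 demethylase, held 3 members between 3.58 and 4.11 in WT, 2 of which had DKO peaks at 2.75 and 3.81. Dnmt3a, a de novo DNA methyltransferase, had 2 members of equal WT fold enrichment, 5.15, near different inner starts. The downstream one was called in DKO at 4.2 and the upstream one in neither knockout. Among other regulators, Jarid2, a Polycomb partner, had 5.65 in WT, 4.48 in KO and 5.52 in DKO at a member beside its end start, and Brd2, an acetyl-lysine reader, had 5.61, 3.20 and 4.12. The 2 members of Arid1a, a subunit of the BAF remodeller, were at 3.65 and 3.22 in WT, 4.63 and 3.73 in KO and 2.96 and 2.98 in DKO. Hdac4 had 7.42 in WT and no peak in either knockout.

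A list of 63 genes known for starts inside their span held members in 28 (44.4%, against 6.33% of all protein-coding genes), which had 34 members. They are very long genes, with a median span of 191863 bases. Only 10 of the 34 members were near a coding start of the table, against 56.7% of the 1533 members on its chromosomes. Of the 34, 11 had a DKO peak and 2 a KO peak, beside 38.2% and 6.28% of all members. Among cytoskeletal linker and membrane skeleton genes, members of Dst (3.76), Ank3 (3.86), Plec (4.49) and Dmd (4.17) were called in WT alone, while the 2 members of Macf1 (4.53 and 2.90) also had DKO peaks. The tropomyosin genes had DKO peaks as well, with Tpm3 at 6.38 in WT and 3.45 in DKO and Tpm1 at 4.84 and 5.13. Arhgef7, a Rac exchange factor gene, had 6.60 and 4.01.

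Imprinted loci held members in 7 of 40 genes (17.5%, against 6.33% of all protein-coding genes), with 9 members. Gnas, which has several starts with parent-specific use, held 3. The strongest, beside the end of the antisense transcript Gnasas1, was at 5.61 in WT, 5.19 in KO and 5.29 in DKO. The other 2, at 3.60 and 4.55 in WT, had no peak in either knockout. The Kcnq1 member, described above, and the strongest of Gnas were the 2 of 9 with a KO peak, beside 6.28% of all members. The stronger of 2 members of Commd1 had 5.38 in WT and 5.17 in DKO, Impact 5.56 and 3.85, and Mest 3.50 and 3.35.

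Of 40 p53 target genes, 6 (15%, against 6.33% of all protein-coding genes) held a member, 7 members in all. Besides Cdkn1a, Bbc3, which encodes the cell death inducer PUMA, held 2 members, at 6.55 and 4.34 in WT and 4.90 and 3.74 in DKO, with no KO peak. Mdm4 (6.06), Trp73 (5.05), Ercc5 (4.45) and Pidd1 (3.86) were marked in WT alone. Cdkn1a was the 1 of these 7 members with a KO peak, against 6.28% of all members. Pluripotency genes held members in 9 of 47 (19.1%, against 6.33% of all protein-coding genes), 12 in all. Of the 12, 1 had a KO peak, 7 a DKO peak and 5 neither, beside 6.28%, 38.2% and 60.7% of all members. Esrrb, an orphan nuclear receptor of naive stem cells, had no end peak but 2 members, at 3.66 beside an inner start and at 3.61 further in, the latter with 3.25 in DKO. Otx2, Sall1, Klf2 and Klf4 had members of 2.77 to 3.43 in WT and 3.14 to 3.79 in DKO, in genes that were also marked at an end. Members of Mycn (3.11) and Lifr (3.61) were called in WT alone, though a DKO peak that did not overlap the Lifr member lay within 1000 bases of the inner start there. Ribosomal protein and translation genes are short (median span 5045 bases), and 26 of 30 were marked at an end. Of the 30, 2 held a member, Eif4a1 and Eif4g3 (6.67%, close to the 6.33% of all protein-coding genes).

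Ends of non-coding genes lay within 1000 bases of 221 members (13.9%), against 17.5% of all WT peaks, and the nearest was a lncRNA in 195, a pseudogene in 9 and a miRNA in 6. Of the 20 strongest of these, 13 also lay at a coding start. Those at a lncRNA start alone were inside Arid4a (8.41 in WT and 5.27 in DKO), Mmadhc (7.21 and 4.75), Kcnq1, Ptgis (5.82, WT only) and Prx (5.64 and 4.2). Of 2790 lncRNA starts inside coding genes, 181 (6.49%) had a WT peak within 1000 bases.

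The same rule applied to the knockout lists gave similar shares. It kept 150 of 918 KO peaks (16.3%) and 1156 of 6418 DKO peaks (18.0%). Of the 150, 119 (79.3%) overlapped a WT peak, against 87.6% of all KO peaks, and 102 a member. Of the 1156, 762 (65.9%) did, against 78.1% of all DKO peaks, and 612 a member. The 31 inside KO peaks without a WT peak were narrow, with a median of 316 bases, and lay a median of 16412 bases from an end, against 2902 for those with one. One of the 31 was at a listed start: a Ptch1 peak (4.92) that fell in the gap between the 2 WT members there. The strongest, inside Rasef (8.94), Arhgap24 (7.80) and A830018L16Rik (7.25), lay 34984 to 171862 bases from a listed start, and 3 of the 31 had a DKO peak. The 394 inside DKO peaks without a WT peak included 114 of 381 (29.9%) at a listed start, against 60.0% of those with one, and the strongest lay in 4930467E23Rik (9.81), Kctd16 (7.19) and Rbbp7 (5.78).

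WT had 438 WDR5 and 288 P53 regions beside 9836 H3K4me3 peaks, and overlap with them was uncommon both in members and in all WT peaks. A WT WDR5 region, a place called in both lists of that antibody, overlapped 39 members (2.45%, 1.80 to 3.33), against 2.23% of all WT peaks, and 21 of these also lay on a DKO WDR5 region. A DKO WDR5 region overlapped 29 members (1.82%), against 1.23% of all WT peaks. Regions absent from both DKO WDR5 lists lay on 17 members (1.07%), against 1.26% of all WT peaks. They included inner starts of Cops3, a COP9 signalosome subunit gene (H3K4me3 fold 6.74 in WT and 3.99 in DKO), Dennd6b (5.47 and 5.43), Rpp40, an RNase P subunit gene (4.17, WT only), Ptprs (4.16, WT only) and Cfap74 (4.60, WT only). Of the 17, 10 had a DKO H3K4me3 peak and 2 a KO peak, beside 38.2% and 6.28% of all members. A WT P53 region overlapped 22 members (1.38%), against 0.732% of all WT peaks, and a DKO P53 region 20 members (1.26%), against 0.712%. Of the members, 4 (0.251%, against 0.132% of all WT peaks) lay on P53 regions absent from both DKO P53 lists. These were inside Cpa6, Thsd7b, Sfi1 and Chl1, none at a listed start, and those of Sfi1 and Chl1 also lay on peaks of the WDR5 or P53 lists of DKO. At Cpa6 the H3K4me3 fold enrichment was 4.37 in WT, 9.90 in KO and 3.85 in DKO, and at Thsd7b 4.76 in WT and 11.4 in KO. The member at the inner start of Cdkn1a overlapped no WT P53 region. Only overlap with the peak itself was counted, so this does not show whether P53 was called elsewhere at Cdkn1a, such as at its outer start.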

How the data were processed

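The data are 11 peak lists of CUT&RUN libraries: H3K4me3 in WT, KO and DKO (1 list each) and WDR5 and P53 in WT and DKO (2 lists each). Each list gives the authors' coverage signal (pileup) at the summit, −log10 p-value, −log10 q-value and fold enrichment, a ratio to the local background, per the file headers. The authors called peaks with MACS 2.1.2 or 2.1.0.20150731 at a q cutoff of 0.01, with a 10 kb local background, at most 2 fragments per position and no control library, per the file headers. Named in the submitters' processing notes are Bowtie2, SAMtools 1.5, bedtools, HOMER 4.10 and mm10. The WDR5 and P53 lists numbered 2 come from merged alignments, per the file headers, which do not say what was merged. The 2 lists of a group are labelled rep1 and rep2 but may share reads, so they were not treated as separate replicates. Pileup is not scaled to depth, and the deposited lists hold only peaks past the q cutoff, so a missing peak is not a value of 0.

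Peaks were placed against RefSeq gene spans of GRCm38.p6, the assembly of mm10. 10 mitochondrial H3K4me3 peaks were left out. Spans, starts and overlaps (at least 1 shared base) were handled in Python 3.11.15 with pandas 2.3.3, numpy 2.4.6 and scipy 1.17.1, and plots drawn with matplotlib 3.10.9. Placement and overlap were tested on simulated data. Promoter windows of 300 bases came from a RefSeq table that is not complete and lists no start on chromosome 18. Exons, introns and the sequence at member summits were not analysed here. A start counted as marked with a peak within 1000 bases. A WDR5 or P53 region is a place called in both lists of its group.

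Members and gene lists were chosen with earlier results of these data known. Named loci were the 20 members strongest in WT, the 20 strongest in KO, the 10 widest, those in the gene lists, in genes with 3 or more members, on WDR5 or P53 regions, nearest the limit, or strongest at non-coding gene ends, and the strongest knockout peaks without a WT peak. The paired starts named for their CG counts were chosen after values were seen. Alternatives changed the distance limit, the overlap rule, the peak threshold, list length, gene ends and antibody-called places. With 1 library per genotype no test was made.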

Additional observations from a re-analysis of the deposited data

How the results depend on the processing

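No paired analysis was possible because the results come from no test and each H3K4me3 genotype has 1 library. Of 66 alternative values, 35 stayed within the counting interval of the reported value or within 1.5 times a reported count, and 31 moved. With a limit of 5000 bases there were 685 members with a median fold enrichment of 4.16 and width of 408 bases, a DKO share of 34.9% and a start share of 55.1%, and 7.30% of the KO and 6.45% of the DKO list qualified. With 2000 bases there were 1050 members, and 11% of the KO and 10.5% of the DKO list qualified. Placing peaks by summit gave KO and DKO shares of 8.29% and 42.6%, a median fold of 4.16 and a width of 485 bases. Without members on DKO WDR5 or P53 peaks the KO share was 5.06%. In the stronger 50% of each list there were 591 members with a median fold of 5.15 and width of 628 bases, a start share of 69.0%, and 14.6% of the DKO list inside genes. There the KO share was 6.43% of members and 5.92% of end peaks, so that members were above end peaks. Lists shortened to the length of the shortest gave 21.6% in KO, 33.0% in DKO and 12.4% of the DKO list inside genes. Counting peaks within 500 bases gave a DKO share of 43.4%, and asking for 50% of the shorter peak gave 34.9%. Regions absent from DKO left 17 members for WDR5 and 4 for P53, and leaving out either list of a group gave 38 to 52 and 21 to 25 members. Among alternatives added after seeing the data, members at coding starts had a KO share of 4.72%, and the start share was 50.4% within 500 bases, 67.1% within 2000 bases and 70.1% where the host gene had a listed start. The cause of these shifts was not tested. The KO list rests on the fewest fragments, 22266680; whether depth sets its length was not tested.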

Other observations

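Genes of the anterior neural plate and eye field held members in 11 of 47 cases (23.4%), against 6.33% of all protein-coding genes, although they are short (median span 7145 bases). Of their 13 members, 0 had a KO peak, against 6.28% of all members, and 7 had a DKO peak, against 38.2%. The DKO fold enrichment was above WT at 5 of the 7. The cluster of zinc finger genes Zic2 and Zic5, which act in early forebrain and neural tube formation, had higher values in DKO: Zic2 was at 2.68 in WT and 3.28 in DKO, and the members of Zic5 at 4.01 and 3.14 in WT and both at 4.44 in DKO, the value of 1 DKO peak that overlaps both. Sox11, a neural progenitor factor, had 3.85 and 4.03. A member of Zfhx3 at an inner start, 246261 bases from the nearest end, was lower in DKO (6.32 in WT and 3.31 in DKO). Fold enrichment is not scaled between libraries, and 169 of all 608 members with a DKO peak were higher there than in WT.

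Signalling genes of the Wnt, Fgf, Tgf-beta, Notch and Hedgehog pathways held members in 16 of 81 (19.8%, against 6.33% of all protein-coding genes). They held 21 in all, with 6 called in DKO and 0 in KO, beside 38.2% and 6.28% of all members. A KO peak of Ptch1 (4.92) lay in the gap between its 2 members. The inner and outer starts of Etv5, 1202 bases apart, also had a KO peak within 1000 bases, and no DKO peak. Rbpj, the DNA-binding effector of Notch signalling, held 3: 6.84 in WT and 4.35 in DKO, 3.08 in WT alone, and 2.93 in WT and 4.71 in DKO. Axin1, a scaffold of the β-catenin destruction complex, had 5.52 and 3.31, and the 2 members of the Wnt target Axin2 (4.52 and 5.09) were called in WT alone. Axon guidance and adhesion genes held members in 12 of 65 (18.5%, against 6.33% of all protein-coding genes), 15 in all. Of the 15, 4 were called in DKO and 2 in KO, beside 38.2% and 6.28% of all members. The giant cadherin gene Fat1 held 3, one of them at 4.97 in WT, 5.13 in KO and 3.40 in DKO, and Sema6a was at 5.86 in WT and 3.40 in KO with no DKO peak.

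A few genes held many members. Sfi1, a centrosome gene, held 16, with low fold enrichments of 1.58 to 2.49 and high pileups of 103 to 213 fragments, and 13 of them lay on places called by the WDR5 or P53 antibody in DKO. Zfp993 held 7, of which 5 had a KO peak and 6 a DKO peak. Gse1 held 5, of which 4 lay at listed starts, with 0 called in KO and 1 in DKO. Gm7592 held 4, of which 3 lay on antibody-called places. Together these genes had 32 members, 14 with a KO peak and 18 on antibody-called places, beside 6.28% and 3.08% of all members. The mappability of these places was not tested.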
